A study of Sus scrofa with 32 samples.

Results

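Positional developmental transcription factors, the genes that give cells of the embryo their place along the body axis and along the limb, were followed in ham and loin muscle of pigs. The members were taken by symbol, as every gene of the HOX, TBX, PAX, sine oculis homeobox, PITX, MEOX, LBX, IRX, MEIS and PBX families that the gene name table pairs with an Ensembl identifier of the count table. Of the 25322 gene identifiers there, 11804 had a symbol, and 59 of these were members. They comprised 28 HOX, 9 TBX, 6 PAX, 4 sine oculis homeobox, 3 IRX, 3 PBX, 2 LBX, 2 MEOX, 1 MEIS and 1 PITX gene. A further 21 family symbols, among them PAX7, PITX1, TBX1 and MEIS1, had identifiers that matched none in the count table. They are not analysed here, and their expression is unknown. They include HOXC4, HOXC5, HOXC8, HOXC9, HOXD8 and HOXD11, so the HOXC cluster has no member between HOXC6 and HOXC10.

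The study compared 2 Polish breeds that differ in meat quality, the native Pulawska (PUL) and Polish Landrace (PL), with 8 gilts of each. From each gilt 1 library was made from the semimembranosus (S), a muscle of the hind thigh, and 1 from the longissimus dorsi (LD), the long muscle of the back. The 4 groups were therefore S of PUL, LD of PUL, S of PL and LD of PL, each of 8 libraries, from females labelled as 180 days old that were unrelated, came from different farms and were kept under the same conditions at 1 testing station. The sample labels call PUL the high and PL the low shear force breed, whereas firmness measured in the study ran the other way, so the shear force label was not used and every value of PL over PUL refers to the breeds.

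Hox proteins are homeodomain transcription factors encoded in clusters in which the order of the genes follows the order of their expression from head to tail. Genes of low paralog number act in the neck and anterior trunk, those of middle number in the chest region, and those of high number in the loin, the tail and the growing limb, where they set the identity of the limb segments. Trunk muscles such as LD form from cells that stay near the somite, whereas limb muscles such as S form from cells that migrate into the limb bud, a step that needs PAX3 and LBX1. Adult muscle and its connective tissue are known to keep part of this embryonic code. PBX and MEIS proteins bind DNA together with Hox proteins, sine oculis homeobox proteins switch on myogenic genes, and TBX5 and TBX4 start the forelimb and the hind limb.

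The 32 libraries held between 8821273 and 24761853 expected counts. Values are given as CPM, counts scaled to a library of fixed size, after TMM scaling. They are not divided by gene length, so they are compared between libraries and never between genes. Each library is a piece of whole muscle, in which fewer cells of a type and less RNA per cell cannot be told apart. Of the 59 members 25 passed the filter on low counts in the comparison of S with LD and 34 did not, 8 of which had no count in any library. A member that is present in only 1 muscle passed through the libraries of that muscle and had to differ, so counts over the members that passed are a description only.

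Libraries of 2 PL pigs stood apart from the rest. In PL pig 14 the library labelled S held 6 counts of HOXA10, HOXA11, HOXC10 and HOXC11 together, and the library labelled LD held 41.2 counts. In the 14 pigs other than PL pigs 8 and 14, the same sum lay between 25.9 and 102 counts in S and between 0 and 9 counts in LD. HOXC6 ran the opposite way, with 1.25 CPM in the library of pig 14 labelled S and 0.259 CPM in that labelled LD. Outside the members, 83 genes had an unadjusted p under 0.001 between S and LD in the other 15 pigs, and in pig 14 only 3 of them (3.61%) moved in the direction of those pigs. The S library of PL pig 8, the shallowest of all with 8821273 counts, held 6 counts of the 4 HOX genes. Its LD library of 20473298 counts held 7.09. Scaled for depth, the sum in pig 8 was 0.707 CPM in S and 0.373 CPM in LD, and HOXC6 was lower in S than in LD. Both kept the direction of the 14 pigs, but the sum in S lay below their lowest S value, 2.04 CPM. Among the 4 genes, HOXA10 and HOXA11 were higher in S of pig 8, and HOXC10 was higher in LD. Of 25 such other genes in pig 8, picked with pig 14 among the remaining pigs, 9 (36.0%) moved in the direction of those pigs. In the 14 pigs other than pigs 8 and 14, this share lay between 58.6% and 100%. The labels were kept as given. Results are shown with all 16 pigs and without pig 14, and without both pigs where that changes a call.

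**Figure D1:**
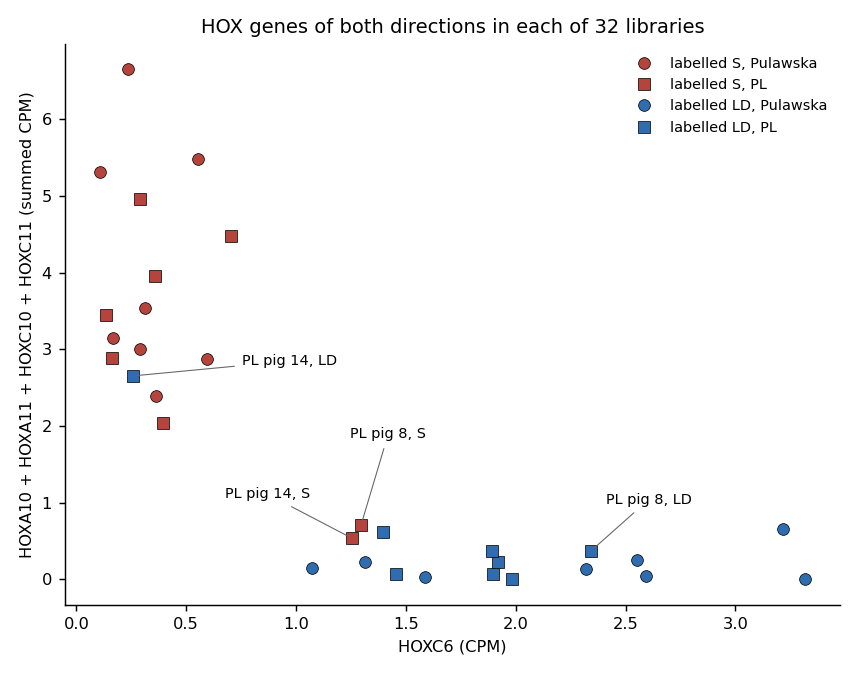
Each point is 1 library, with HOXC6 in CPM on the x axis and the summed CPM of HOXA10, HOXA11, HOXC10 and HOXC11 on the y axis; red points are labelled S and blue points LD, circles PUL and squares PL. The S libraries of 14 pigs lie between 2.04 and 6.65 on the y axis, the LD libraries of the same pigs between 0 and 0.658, and the 2 libraries of PL pig 14 lie each among those of the other muscle.

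HOXA11, HOXA10, HOXC10 and HOXA7 were higher in S than in LD, and HOXC6 and IRX3 were lower. These were the 6 members called in the comparison over both breeds, where a call means an adjusted p of at most 0.05 and a change of at least 1.3-fold in edgeR's quasi-likelihood test. In that test 0.138% of 11563 genes were called, which is 16 genes, against 6 of the 25 members tested. Of the 8 genes called higher in S (0.0692%) 4 were members, and of the 8 called lower (0.0692%) 2 were members. Members with few counts in 1 muscle, HOXC6 among them, could pass the filter on low counts through the other muscle. These shares are therefore a description only. The median log2 fold change of the 25 members was 0.16, beside -0.02 over all genes tested.

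The HOX genes of paralog groups 10 and 11, which pattern the limb and the posterior trunk, gave the largest differences. HOXA11 (ENSSSCG00000016698) had a lowest, median and highest value of 0.276, 0.676 and 1.96 CPM in the 8 S libraries of PUL. In the LD libraries of PUL it had no count in 7 libraries and 1 count, or 0.0323 CPM, in the library of pig 1. In PL its S libraries ran from 0 to 1.33 CPM with a median of 0.824, and its LD libraries from 0 to 0.518 CPM with a median of 0. Both PL extremes, 0 in S and 0.518 in LD, came from pig 14, and S was higher than LD in 15 of 16 pigs. The summed counts of PUL were 101 in S against 1 in LD, a depth-scaled ratio of 113 with an exact 95% counting interval from 19.9 to 4516. In PL they were 102 against 10, a ratio of 10.0 (5.24 to 21.6), and without pig 14 they were 102 against 2, a ratio of 48.2 (13 to 403). These intervals cover counting error only. The log2 fold change over both breeds was 4.47 (SE 0.57, adjusted p = 2.98e-05 in edgeR), and without pig 14 it was 5.44 (SE 0.46, adjusted p = 7.55e-09). Without pig 14 all 15 S libraries lay above every LD library.

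HOXA10 (ENSSSCG00000021204), the neighbouring gene of the HOXA cluster that acts in the upper limb segment and the lumbar region, showed the same distribution. In PUL its S libraries had 0.579, 1.57 and 3.19 CPM as lowest, median and highest value, and 6 of the 8 LD libraries had no count, the highest reaching 0.146 CPM. In PL the S libraries ran from 0 to 2.42 CPM with a median of 0.938, and 5 LD libraries had no count. The library of PL pig 14 labelled LD reached 1.10 CPM, where the next highest of its group had 0.155 CPM, while its library labelled S was the only S library at 0. Counts in PUL summed to 240 in S and 4 in LD, a ratio of 67.3 (25.9 to 249), and in PL to 159 and 21, a ratio of 7.45 (4.71 to 12.4), or 37.5 (14.4 to 140) without pig 14. HOXA10 was higher in S in 15 of 16 pigs, with a log2 fold change of 4.16 (SE 0.61, adjusted p = 0.000205). Without pig 14 the log2 fold change was 5.24 (SE 0.50, adjusted p = 5.43e-08) and the groups did not overlap.

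HOXC10 (ENSSSCG00000022728), which in the embryo marks the hind limb and not the forelimb, was present at a low level in LD too. Its S libraries held 0.520, 1.28 and 2.03 CPM in PUL, and 0, 0.999 and 1.49 CPM in PL, as lowest, median and highest value. Its LD libraries reached 0.512 CPM in PUL with a median of 0.107, and 0.777 CPM in PL with a median of 0.219. The S library at 0 was that of PL pig 8 and the highest LD library that of PL pig 14, and in 14 of 16 pigs S was higher than LD. The log2 fold change was 2.56 (SE 0.45, adjusted p = 0.00367), and without pig 14 it was 2.86 (SE 0.45, adjusted p = 0.000715). With the pig as a block HOXC10 was not called (2.71, SE 0.52, adjusted p = 0.0524), whereas the blocked fit without pig 14 called it (2.93, SE 0.50, adjusted p = 0.00770). Over all alternatives its adjusted p ranged from 1.76e-06 to 0.889.

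HOXA7 (ENSSSCG00000016701), a gene of the chest and trunk region, was detected in every library and differed less. In PUL its S libraries held 7.75 to 10.8 CPM with a median of 9.75, and its LD libraries 2.01 to 5.36 CPM with a median of 3.66, so that the muscles did not overlap. In PL the S libraries held 1.43 to 11 CPM with a median of 7.51 CPM, and the LD libraries 1.78 to 7.49 CPM with a median of 3.48. The lowest PL values in S, 1.43 and 1.77 CPM, came from pigs 14 and 8, and the other 6 S libraries of PL held at least 6.40 CPM. The log2 fold change was 1.08 (SE 0.23, adjusted p = 0.0270), with S higher in 14 of 16 pigs. The call was lost in 11 of the 16 fits that left out 1 pig (pigs 1, 2, 3, 4, 7, 9, 10, 12, 13, 15 and 16, adjusted p from 0.0604 to 0.133) and in the fit with the pig as a block (1.10, SE 0.25, adjusted p = 0.158). Without pig 14 the adjusted p was 0.00147 and with the block as well 0.00246, within a range over all alternatives from 0.000120 to 1.0.

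HOXC6 (ENSSSCG00000030585), which acts in the anterior trunk at the level of the chest, was the member that fell most in S. Its S libraries held 0.107, 0.302 and 0.592 CPM in PUL as lowest, median and highest value, and its LD libraries 1.07, 2.44 and 3.32 CPM. In PL the S libraries ran from 0.133 to 1.3 CPM with a median of 0.376, and the LD libraries from 0.259 to 2.34 CPM with a median of 1.89. The highest S libraries of PL were those of pigs 8 and 14 and the lowest LD library that of pig 14. LD was higher than S in 15 of 16 pigs, and 14 of the 16 LD libraries lay above every S library. Summed counts were 43 in S against 326 in LD in PUL, a ratio of 0.148 (0.105 to 0.204), and 63 against 206 in PL, a ratio of 0.301 (0.223 to 0.401). The log2 fold change was -2.16 (SE 0.30, adjusted p = 0.000140), and -2.38 (SE 0.27, adjusted p = 2.17e-06) without pig 14.

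IRX3 (ENSSSCG00000002831), an Iroquois homeodomain factor of neural and early hind limb patterning, was the only called member outside the HOX clusters. Its LD libraries held 0.658 to 9.77 CPM in PUL with a median of 1.86, and 0.971 to 3.30 CPM in PL with a median of 2.10. Its S libraries held 0.215 to 1.09 CPM in PUL with a median of 0.517, and 0.107 to 1.70 CPM in PL with a median of 1.07. The values overlapped in both breeds, and the 9.77 CPM of the LD library of PUL pig 1 stood far above the next value, 4.29 CPM. In PL the highest S values, 1.65 and 1.70 CPM, came from pigs 8 and 14, and the lowest LD value from pig 14. The other S libraries of PL held at most 1.45 CPM and its other LD libraries at least 1.53 CPM. LD was higher in 13 of 16 pigs, with a log2 fold change of -1.73 (SE 0.35, adjusted p = 0.0228). The call was lost when any of 7 pigs was left out (pigs 1, 3, 5, 7, 9, 12 and 15, adjusted p from 0.0556 to 0.0885), with the pig as a block (-1.63, SE 0.42, adjusted p = 0.244), and with the block and without pig 14 (-1.77, SE 0.41, adjusted p = 0.0611). Without pig 14 it was -1.86 (SE 0.36, adjusted p = 0.00948), and without PUL pigs 1 to 5 it was -0.63 (SE 0.39, adjusted p = 1.0). Over all alternatives its adjusted p ran from 0.000527 to 1.0.

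**Figure D2:**
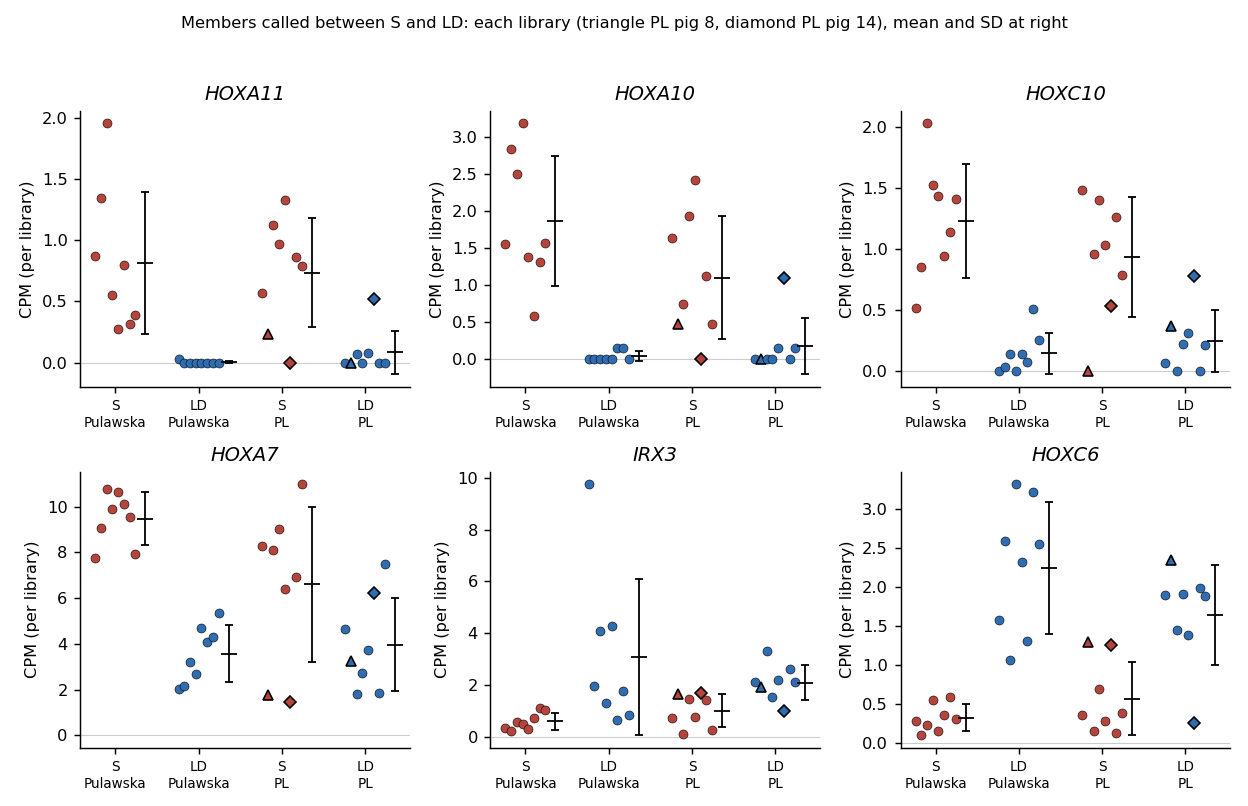
CPM of each library on a linear y axis that reaches 0, for the 6 members called between S and LD, in the 4 groups of 8 libraries, with the group mean and SD beside the points; triangles are PL pig 8 and diamonds PL pig 14. In HOXA11 and HOXA10 nearly all LD libraries lie at or near 0 apart from the diamond at 0.518 and 1.10 CPM, and in HOXC6 the LD points lie between 1.07 and 3.32 CPM apart from the diamond at 0.259 CPM.

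The pig contributes both muscles, and with the pig as a block 3 members were called, HOXA11 (4.69, SE 0.64, adjusted p = 0.00444), HOXC6 (-2.26, SE 0.33, adjusted p = 0.00553) and HOXA10 (4.54, SE 0.74, adjusted p = 0.0195). In that fit 0.0951% of 11563 genes were called. The block without pig 14 called 5 members beside 0.668% of 11678 genes, all but IRX3 of the 6. Without pig 14 and with no block the same 6 members were called, beside 0.223% of 11678 genes. HOXA11, HOXA10, HOXC6 and HOXC10 kept their call in each of the 16 fits that left out 1 pig. All 4 lost it without PUL pigs 1 to 5, with adjusted p of 0.396, 0.889, 0.312 and 0.889 in that order. That fit called 0 of 11947 genes, and the log2 fold changes in it were 4.52, 3.04, -2.0 and 1.97 in the same order. Over all alternatives the adjusted p ran from 3.19e-09 to 0.396 for HOXA11, from 5.43e-08 to 0.889 for HOXA10 and from 8.80e-10 to 0.312 for HOXC6.

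Set side by side by paralog number, the called HOX genes were those of groups 6, 7, 10 and 11 named above. No call was made among the tested members of groups 1 to 5, HOXD1, HOXA3, HOXD4 and HOXA5, whose log2 fold changes were -0.20 (SE 0.32), 0.31 (SE 0.28), 0.17 (SE 0.20) and 0.17 (SE 0.17). HOXB6 and HOXB7, the HOXB genes of the groups in which HOXC6 and HOXA7 were called, had -0.28 (SE 0.26) and 0.22 (SE 0.25). HOXD9, the only tested gene of group 9, had medians of 11.1 CPM in S and 7.85 CPM in LD of PUL, and of 7.58 and 8.18 CPM in PL, with a log2 fold change of 0.11 (SE 0.25, adjusted p = 0.991). HOXA5, a gene of the neck and upper chest, had medians of 4.77 and 3.93 CPM in S and LD of PUL and of 3.98 and 2.99 CPM in PL. Within the HOXC cluster the sign differed, since HOXC6 fell in S while HOXC10 rose.

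**Figure D3:**
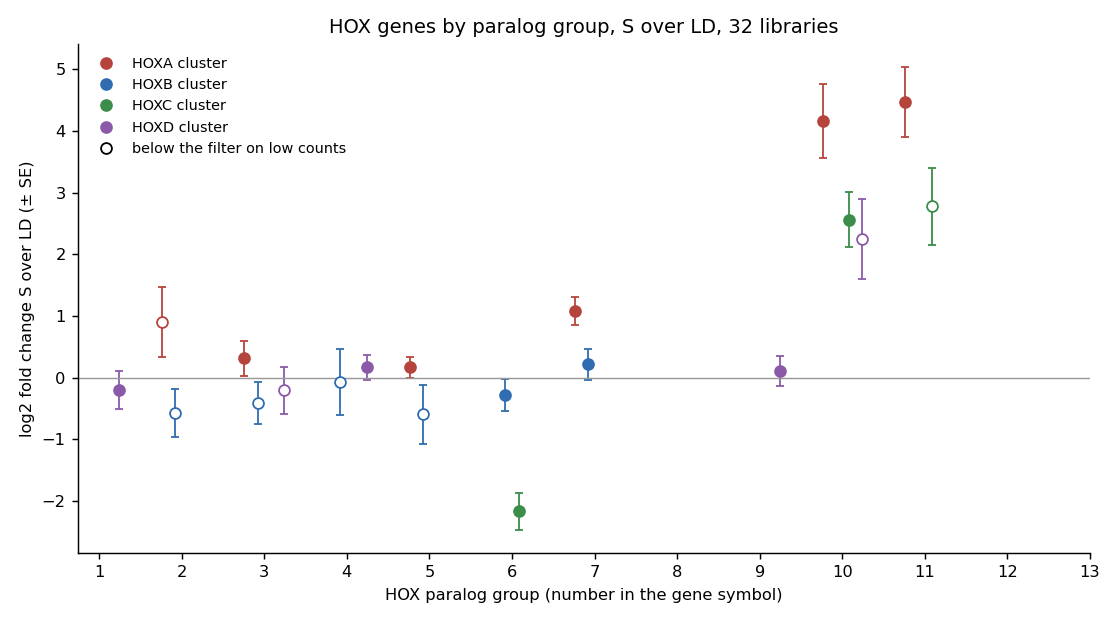
Log2 fold change of S over LD with its SE on the y axis is set against the HOX paralog group on the x axis, coloured by cluster. Shown are HOX members with at least 20 counts in all. Filled circles are tested genes, with values of the fit used for the calls. Open circles are genes that did not pass the filter on low counts, with values of the fit without that filter. Groups 10 and 11 lie between 2.25 and 4.47, HOXC6 at -2.16, and all tested genes of groups 1 to 5 between -0.20 and 0.31.

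Among the 16 HOX members that were not tested, HOXC11 and HOXD10 had counts mainly in S. HOXC11 (ENSSSCG00000028104), like HOXC10 a hind limb gene, had at least 1 count in all 8 S libraries of PUL and in none of its LD libraries, with sums of 17 and 0. With 3 counts set in place of 0 in LD, and the 17 counts in S taken as exact, the depth-scaled ratio in PUL was 6.35. In PL the sums were 16 and 5, a ratio of 3.15 (1.10 to 11), and without pig 14 they were 16 and 1, a ratio of 15.1 (2.35 to 634). HOXD10 (ENSSSCG00000015981), which acts in the limb and the lumbar cord, had 32 counts in S and 5 in LD over both breeds, a ratio of 6.74 (2.61 to 22.2). Over the 12 untested members with 20 or more counts, a two-sided permutation of the muscle labels within pigs, exact over all sign changes of 16 pigs, gave p = 0.00842 for HOXC11 (mean difference 0.0993 CPM, SD 0.127, S higher in 13 pigs and LD in 1) and p = 0.0122 for HOXD10 (0.0927 CPM, SD 0.155, S higher in 10 pigs and LD in 2). Neither passed adjustment over the 12 genes (both 0.0732, Benjamini-Hochberg), and in edgeR without the filter their adjusted p were 0.113 and 0.457. The other 10 had adjusted permutation p from 0.181 to 0.874, among them the anterior genes HOXB2 to HOXB5, HOXA2 and HOXD3, the sclerotome gene PAX9 and the T cell factor TBX21. Posterior to group 11, HOXC12, HOXC13 and HOXB13 had no count and HOXD12 had 2 counts in all 32 libraries.

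The T-box genes that start the limbs were near the limit of detection. TBX4, the hind limb gene, had 6 counts in all, each a single count in 1 of 6 S libraries, and TBX5, the forelimb gene, had the same number in the same form. Neither had a count in the 16 LD libraries. With 3 counts set in place of 0 in LD, and the 6 counts in S taken as exact, the depth-scaled ratio was 2.11 for each. This ratio describes the counts of these libraries, leaves out the counting error in S, and is accompanied by no test. For PUL alone, with 2 counts of each gene, no such ratio was formed. A difference between TBX4 and TBX5 was not detectable at this depth. TBX2, TBX3 and TBX18, which act in the limb bud margins and the somite, had log2 fold changes of 0.16 (SE 0.16), 0.29 (SE 0.23) and 0.59 (SE 0.32). TBX18 had medians of 3.77 CPM in S and 3.23 in LD of PUL and of 8.13 and 3.94 in PL. It was higher in S in 13 of 16 pigs and was not called (adjusted p = 0.990).

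LBX1, which directs migrating precursors into the limb, had the smallest p among the members not called. Its S libraries held 1.56 to 3.43 CPM in PUL with a median of 2.61, and 0.471 to 2.87 CPM in PL with a median of 1.81. Its LD libraries held 0.421 to 3.09 CPM in PUL with a median of 1.02, and 0.518 to 2.93 CPM in PL with a median of 1.11. S was higher in 14 of 16 pigs, with a log2 fold change of 0.71 (SE 0.26, adjusted p = 0.819). Unlike HOXA10, HOXA11, HOXC10 and HOXA7, it was higher in the library of PL pig 14 labelled S (2.87 CPM) than in that labelled LD (0.518 CPM). LBX1 was called in 1 alternative only, the blocked fit without PL pigs 8 and 14 (0.90, adjusted p = 0.0423, with 0.755% of 11785 genes called), and its adjusted p in the fits that left out 1 pig ran from 0.418 to 0.999, against a range over all alternatives from 0.0423 to 1.0. PAX3, the other factor of limb muscle precursors, had 17 counts in 32 libraries, 6 in S and 11 in LD, and was not tested.

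The myogenic and somite factors showed no call. SIX2 and SIX4, sine oculis homeobox factors, were at -0.54 (SE 0.26) and -0.75 (SE 0.51). MEOX1 and MEOX2, factors of the early somite, were at 0.41 (SE 0.35) and -0.05 (SE 0.25). PBX3 and PBX2, Hox cofactors, were at 0.01 (SE 0.21) and -0.35 (SE 0.25), and PITX3, known from the lens and from differentiating muscle, at -0.45 (SE 0.25). The signs of PBX3 and MEOX2, both near 0, changed with the block or the pigs left out.

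**Figure D4:**
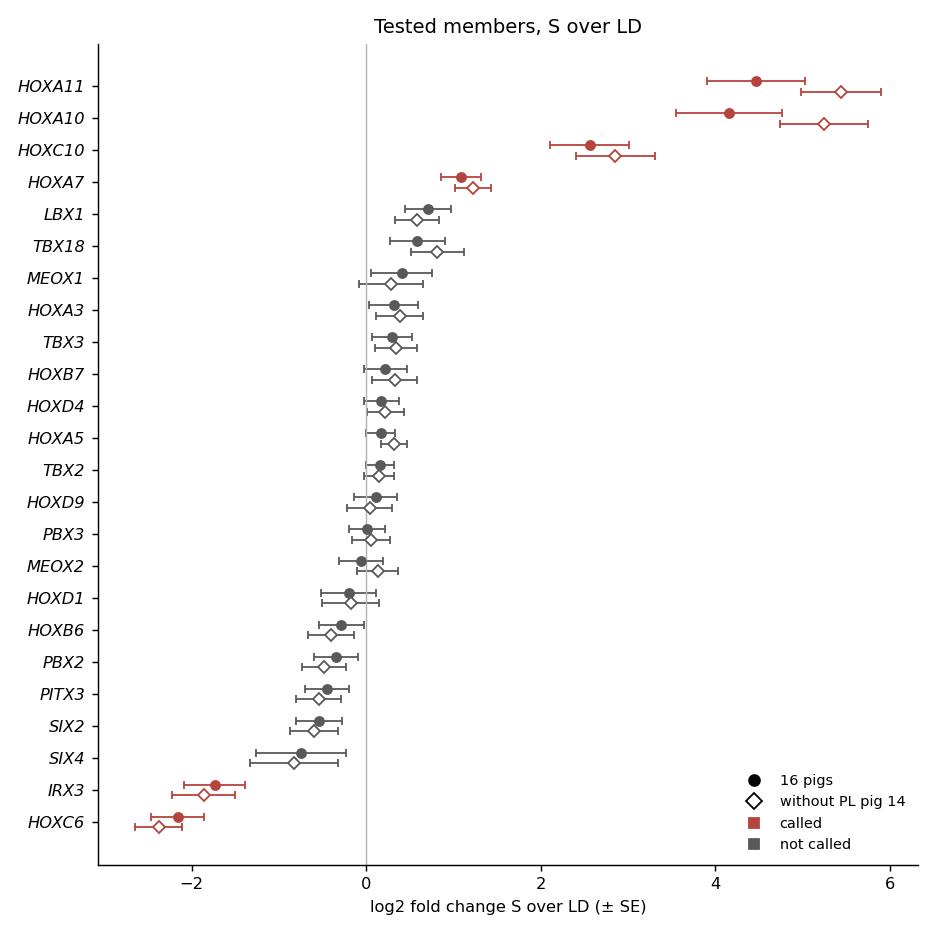
Log2 fold change of S over LD with its SE on the x axis for 24 of the 25 tested members, with all 16 pigs (filled circles) and without PL pig 14 (open diamonds); red marks members called. HOXA11 moved from 4.47 to 5.44 and HOXA10 from 4.16 to 5.24 without pig 14, and the members not called lay between -0.75 and 0.71 with all pigs.

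Within PUL the difference between the muscles held 5 of the 6 calls, at a background of 0.0865% of 11563 genes. HOXA11 had a log2 fold change of 5.84 (SE 0.89, adjusted p = 0.00123), HOXA10 of 5.66 (SE 0.94, adjusted p = 0.00254) and HOXC10 of 3.20 (SE 0.66, adjusted p = 0.0436). HOXC6 was at -2.75 (SE 0.43, adjusted p = 0.00155) and IRX3 at -2.39 (SE 0.50, adjusted p = 0.0467). HOXA7 was at 1.42 (SE 0.32) with an adjusted p of 0.0867, and 0.0209 once PL pig 14, which shares the estimate of the spread, was left out (0.128% of 11678 genes called). With the pig as a block 2 members were called, HOXA11 and HOXC6, both with an adjusted p of 0.0425, at a background of 0.0259%. HOXC10 and IRX3 were called in 5 each of the 16 fits that left out 1 pig.

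Within PL 0 members were called at a background of 0.0% of 11563 genes, in edgeR and in DESeq2 alike. At an unadjusted p under 0.05 edgeR had 364 genes (3.15%), 6 of them members, and DESeq2 had 262 (2.27%), also with 6 members. The directions were those of PUL, with log2 fold changes of 3.09 (SE 0.69) for HOXA11, 2.65 (SE 0.76) for HOXA10, 1.92 (SE 0.61) for HOXC10, -1.57 (SE 0.42) for HOXC6, 0.75 (SE 0.32) for HOXA7 and -1.08 (SE 0.49) for IRX3. Without pig 14 the same fit called 3 members at a background of 0.0514% of 11678 genes. These were HOXA11 (5.03, SE 0.65, adjusted p = 0.000122), HOXA10 (4.82, SE 0.73, adjusted p = 0.00134) and HOXC6 (-2.01, SE 0.39, adjusted p = 0.0351). Without pigs 8 and 14 it called 3 members at a background of 0.0849% of 11785 genes, and with the block and without pig 14 it called 3 at 0.0514%. With the block and without pigs 8 and 14 it called 4 at 0.102% of 11785 genes, HOXA7 being the fourth (1.3, SE 0.24, adjusted p = 0.0461).

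The difference between the breeds in the S over LD change was tested as an interaction, and 0 members were called at a background of 0.0% of 11563 genes. At an unadjusted p under 0.05 edgeR had 224 genes (1.94%), 2 of them members, and DESeq2, which made no call either, had 218 (1.89%), 3 of them members. The members of smallest p were HOXA10, whose change was lower in PL by a log2 value of -3.01 (SE 1.23), HOXA11 at -2.76 (SE 1.18) and HOXC6 at 1.17 (SE 0.59), all with an adjusted p of 1.0. Without pig 14 these values shrank to -0.85 (SE 1.18), -0.82 (SE 0.93) and 0.74 (SE 0.53).

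Between the breeds no member was called in either muscle. In LD 20 members were tested and 0 were called, at a background of 0.0% of 10792 genes, with 772 genes (7.15%) and 1 member at an unadjusted p under 0.05. DESeq2 called 19 genes (0.176%) in LD, none a member, and had 881 (8.16%) and 1 member at an unadjusted p under 0.05. In S 21 members were tested and 0 were called, at a background of 0.0% of 10687 genes, with 1252 genes (11.7%) and 4 members at an unadjusted p under 0.05, and DESeq2 called 103 genes (0.964%), none a member, with 1348 (12.6%) and 5 members at an unadjusted p under 0.05. The median log2 fold change of PL over PUL was -0.12 over the members tested in LD and -0.10 over those tested in S, beside 0.01 and 0.02 over all genes. These comparisons use the same libraries as the comparisons of the muscles. Since edgeR called no gene at all between the breeds, the absence of a call among the marker genes of cell types says nothing particular about them. The study itself reported the smooth muscle marker CNN1 and the fast fibre marker PVALB as higher in LD of PL. The median log2 fold change of PL over PUL was 1.41 in LD and 1.11 in S over 5 fibroblast genes, of which 4 and 3 had an unadjusted p under 0.05. It was 1.32 and 1.3 over 3 red blood cell genes (2 and 1 under 0.05), -2.54 and -3.83 over 2 hepatocyte genes (1 and 1), and 1.03 and -0.38 over 3 satellite cell genes (1 and 0). It was 0.28 and 0.14 over 3 smooth muscle genes (1 and 1), 0.03 and -0.29 over 3 fast fibre genes (1 and 0), and 0.10 and -0.37 over 2 skeletal muscle genes (0 and 1). The part of these genes in the values of the members was not tested.

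HOXD1, the most anterior HOX gene tested, had the smallest p in S. Its S libraries held 1.93 to 7.12 CPM in PUL with a median of 3.87, and 0.617 to 3.46 CPM in PL with a median of 2.08. The difference of PL over PUL was -1.03 on the log2 scale (SE 0.33, adjusted p = 0.268), and the breeds overlapped. In LD its PUL libraries ran from 0.0323 to 8.41 CPM with a median of 4.49 and its PL libraries from 1.59 to 3.89 CPM with a median of 2.18, a difference of -0.97 (SE 0.51, adjusted p = 0.724). The lowest of these, at 0.0323 CPM, was the LD library of PUL pig 1, which was also lowest among the LD libraries of PUL for HOXD9 (0.388 CPM) and PBX3 (4.53 CPM). HOXD1 was lower in PL in every alternative in both muscles, from -1.19 to -0.89 in S.

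MEOX2, a homeodomain factor of the somite and of vessels, had the smallest p in LD. Its LD libraries held 5.06 to 16.8 CPM in PUL with a median of 9.94, and 6.99 to 41.2 CPM in PL with a median of 16.2, a log2 fold change of 0.98 (SE 0.38, adjusted p = 0.563). Its highest value, 41.2 CPM, was in the library of PL pig 14 labelled LD, and without that pig the change was 0.74 (SE 0.36, adjusted p = 0.977). In S its median was 11.3 CPM in PUL and 17.1 CPM in PL, a change of 0.70 (SE 0.31, adjusted p = 0.402). SIX2 in S was at -0.56 (SE 0.22, adjusted p = 0.348) and HOXD9 in S at -0.49 (SE 0.22, adjusted p = 0.397).

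**Figure D5:**
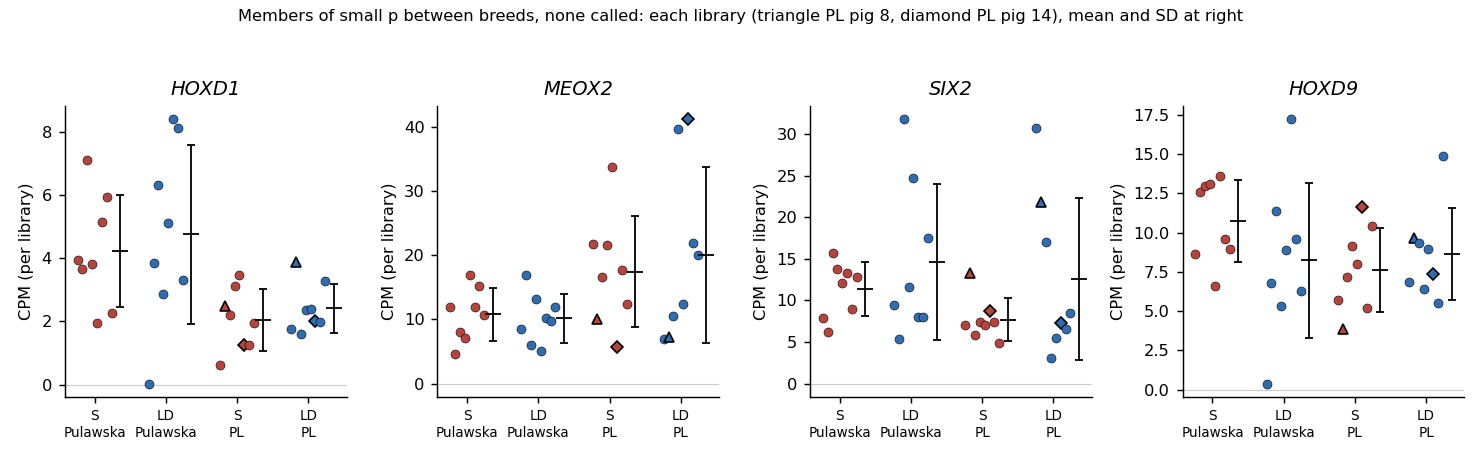
CPM of each library on linear axes that reach 0 for HOXD1, MEOX2, SIX2 and HOXD9 in the 4 groups of 8 libraries, with the group mean and SD beside the points; triangles are PL pig 8 and diamonds PL pig 14. The breeds overlapped in each panel, and none of these members was called in either muscle.

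Of the partners of these factors, the genes outside the families that share their pathways, 4 lists were read beside them. The list of other positional and limb transcription factors held 17 genes found in the table, 8 of them tested, and 2 were called, both lower in S. Among them was ZIC1, a zinc finger gene of the dorsal somite and neural tube, with 0.685 CPM in S and 4.39 CPM in LD (log2 fold change -2.91, SE 0.44, adjusted p = 0.000317). The median of the 8 was 0.19. Of the limb and axial patterning signals 9 of 15 genes were tested and 0 called, with a median of -0.01, and FST, the follistatin gene, had 7.68 CPM in S and 10.4 in LD. Of the TALE and EYA cofactors 3 of 5 were tested and 0 called (median -0.03), EYA3 being at -0.03 (SE 0.08). Of the chromatin regulators known to hold Hox genes on or off 13 of 14 were tested and 0 called (median -0.12), and WDR5 was at -0.04 (SE 0.11). All medians stand beside -0.02 over all genes tested in S over LD.

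Markers of other cell types were read for the same comparison, and none of their genes was called between S and LD. Since only 0.138% of 11563 genes were called there, the absence of a call says nothing particular about the markers. At an unadjusted p under 0.05 in edgeR were 2 smooth muscle genes and 1 gene each of the hepatocyte, fast fibre and red blood cell lists. The 2 skeletal muscle genes tested, ACTA1 and DES, had 73981 and 6092 CPM in S and 88150 and 5989 CPM in LD. The summed fibroblast markers (5 of 6 tested, median log2 fold change 0.28) ran from 112 to 5420 CPM in S and from 252 to 5455 CPM in LD, the satellite cell markers (4 of 5 tested, 0.03) from 12.7 to 49.2 and from 10.1 to 55.8 CPM, and the smooth muscle markers (3 of 4 tested, 0.47) from 81.2 to 267 and from 108 to 272 CPM. PL pig 14 gave the highest LD sums of the fibroblast and smooth muscle markers and the highest S sum of the satellite cell markers. Medians of the other lists were 0.11 for endothelial (4 tested), -0.19 for adipocyte (2 tested), 0.16 for slow fibre (4 tested), 0.005 for fast fibre (3 tested) and 0.08 for red blood cell genes (3 tested), while of the nerve and Schwann cell genes found, NGFR among them at 0 in 31 of 32 libraries, none was tested. Hepatocyte genes (6 tested, 0.77) ran from 8.94 to 1180 CPM in S and from 7.97 to 125 CPM in LD, and the highest value in PL was 33.2 CPM, in the library of pig 14 labelled S. Their part in the results was not tested. In the alternative without PUL pigs 1 to 5 HOXA11 was at 4.52 (SE 1.02), HOXA10 at 3.04 (SE 0.86), HOXC10 at 1.97 (SE 0.59), HOXC6 at -2.0 (SE 0.43), HOXA7 at 0.88 (SE 0.34) and IRX3 at -0.63 (SE 0.39), and edgeR called no gene with the 11 remaining pigs.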

How the data were processed

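Total RNA of 32 muscle samples, S and LD of 16 gilts, was depleted of ribosomal RNA, made into libraries with a kit that does not mark strand and sequenced. The authors trimmed the reads, aligned them with Bowtie 2 to Sscrofa10.2 and estimated expected counts per gene with RSEM, and deposited these expected counts without further scaling. CASAVA 1.8.2 is named in the submitters' processing notes. RSEM shares reads among near-identical copies, so values of close paralogs are uncertain, and reads of overlapping antisense genes cannot be told apart.

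Expected counts were rounded to whole numbers. Genes passing filterByExpr were scaled by TMM and tested with edgeR 4.0.16 in R 4.3.3 (quasi-likelihood F test, Benjamini-Hochberg adjustment over all genes tested), with the 4 groups of breed and muscle in 1 fit for S over LD, its values within each breed and the interaction, and with the libraries of 1 muscle for the breeds. A call needed an adjusted p of at most 0.05 and, except for the interaction, a change of at least 1.3-fold. The SE is the log2 fold change divided by the root of F. DESeq2 1.42.0, other scalings and filters, a block for the pig and the omission of pigs were alternatives. Code was tested on simulated data. Library totals limit the precision of low genes, and intervals of count ratios cover counting error only.

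Labels number the pigs, so S and LD libraries of the same number come from the same animal. Their deviations from the group means correlated with r from -0.05 to 0.62 (median 0.21) in 15 pigs and -0.50 in PL pig 14. Among the LD libraries of its breed, the S library correlated best with that of the same pig in 8 of the 15 pigs. In PL this held for pigs 10 and 18 only. The table of transcripts was not used here, and some genes that the rule below would name are not reported here. Named were the members called in S over LD, in each family the uncalled member of highest mean CPM, the 3 members of smallest p in each breed comparison and the interaction, and of each list the 2 called genes of largest change or else the gene of highest CPM; LBX1 and others named beyond these were chosen after their values were seen. Members and lists were chosen with earlier results of these data known, and omission of PL pigs 8 and 14 was chosen after seeing the data.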

Additional observations from a re-analysis of the deposited data

Results flagged for a closer look

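In the 4 groups of 8 libraries of 14 named members, 56 groups in all, 9 held a library far from the other 7 by Dixon's criterion, which chance meets in about 1 in 20 groups of normally distributed values. Groups near 0 are not of that kind, and in HOXA11 of LD of PUL a single count in 1 library met it. In LD of PL, the library of pig 14 was highest for HOXA10 (1.10 CPM, next 0.155) and HOXA11 (0.518 CPM, next 0.0775) and lowest for HOXC6 (0.259 CPM, next 1.39). In LD of PUL, the library of pig 1 was highest for IRX3 (9.77 CPM, next 4.29) and for HOXA11 (0.0323 CPM, the others at 0), and that of pig 5 for LBX1 (3.09 CPM, next 1.43). HOXD9 was highest in the LD library of PL pig 18 (14.9 CPM, next 9.69), SIX2 in the S library of PL pig 8 (13.3 CPM, next 8.69) and TBX18 in the S library of PUL pig 5 (13.1 CPM, next 6.42).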

How the results depend on the processing

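Of 842 recomputed values of single members, 739 kept their direction and their side of the threshold, 66 lost a call, 19 gained one and 18, of 3 genes, changed sign. Of 334 recomputed counts of calls, 277 stayed within 1.5 times. For S over LD, a minimum of 10 counts in every library left 10 members and 8291 genes to test and called 0 of each, over both breeds and in PUL. That filter removed HOXA10, HOXA11, HOXC10, HOXC6 and IRX3, which could therefore not be called. HOXA7 passed it and was not called (adjusted p = 0.0793 in edgeR over both breeds). The omission of PUL pigs 1 to 5 also called 0 members and 0 genes, over both breeds and in PUL. The replicate block of the pig called 3 members over both breeds, and 2 members and 3 genes in PUL. DESeq2 called 27 genes in PUL. Without PL pigs 8 and 14, 29 genes were called over both breeds, and 3 members and 10 genes in PL. The replicate block without pig 14 called 78 genes over both breeds, 21 in PUL, and 3 members and 6 genes in PL, and without pigs 8 and 14 it called 89, 22, and 4 members and 12 genes. Leaving out 1 pig gave 10 to 26 genes over both breeds, 3 to 6 members in PUL, and 0 to 3 members and 0 to 6 genes in PL, the highest without pig 14. For PL over PUL, no alternative called a member, and the genes called in LD and S were 19 and 103 with DESeq2, 4 and 4 without a filter, 1 and 1 without PUL pigs 1 to 5, 2 and 2 without PL pigs 8 and 14, 1 and 3 with the replicate block as well, 0 to 1 in each with 1 pig left out, and 1 in S with RLE factors. Numbers shared across breeds do not pair animals (r from -0.29 to 0.53 in LD and -0.30 to 0.19 in S, own number best in 2 and 1 of 8), and the block on them called 0 members.

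Among the 32 member results recomputed here, the signs that changed belonged to S over LD values near 0. MEOX2 was at 0.033 with the replicate block, 0.20 with it and without pig 14, 0.19 with it and without pigs 8 and 14, 0.12 without those pigs, 0.030 without PUL pigs 1 to 5, and -0.20 to 0.13 with 1 pig left out. PBX3 was at -0.23 without PUL pigs 1 to 5 and -0.062 to 0.11 with 1 pig left out, and HOXD9 at -0.11 without PUL pigs 1 to 5. Apart from the fewer genes or pigs tested, the cause was not tested. The filter on low counts kept all members with under 20 counts in all out of the main comparison of S with LD. It also kept out 12 members with 21 to 269 counts.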
